A study of Mus musculus with 6 samples.

Results

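The chromatin around Pou5f1, Sox2 and Nanog, the 3 genes at the core of the pluripotency network, was examined for SMAD1/5 binding in mouse embryonic stem cells and in epiblast stem cells made from them. The members are all peaks that overlap 1 of 3 windows of the mm9 build. These were chromosome 17 from 35545000 to 35745000 for Pou5f1 (200 kb), chromosome 3 from 34450000 to 34680000 for Sox2 (230 kb, reaching a distal enhancer downstream of the gene) and chromosome 6 from 122560000 to 122760000 for Nanog (200 kb). The windows held 53 of the 24441 peaks in 4 deposited lists: 21 of 9387 in the LIF+serum list, 31 of 14696 in the LIF+BMP-4 list, 1 of 225 in the list of epiblast stem cells after 1.5 h of BMP-4, and 0 of 133 in the list after 24 h.

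All libraries came from the E14 embryonic stem cell (ESC) line or from epiblast stem cells derived from it (ESD-EpiSCs). Apart from the input libraries, all were immunoprecipitated with the same anti-Smad1 antibody. The LIF+serum cells were kept in 15% serum with 1000 U/ml LIF, with no BMP-4 named in that label, and the LIF+BMP-4 cells in basal medium with LIF and 10 ng/ml BMP-4. ESD-EpiSCs were kept in FGF2 (12 ng/ml) with Activin A (20 ng/ml). They received 10 ng/ml BMP-4, and exposure lasted 1.5 h in 1 library and 24 h in the other. Each condition was 1 library, with no replicate and no ESD-EpiSC immunoprecipitation without BMP-4, so every difference below is a description without a test, and cell state, medium and library cannot be told apart. The lists hold no reads and no expression values: depth is unknown, an uncalled site may still be bound, and the labelled cell types could not be checked against markers.

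Bone morphogenetic proteins act through receptor kinases that phosphorylate SMAD1 and SMAD5, which enter the nucleus with SMAD4 and bind enhancers, often beside lineage-specific factors. BMP-4 together with LIF can sustain naive ESCs without serum, whereas primed epiblast stem cells rely on FGF and Activin and can differentiate when given BMP. Pou5f1 encodes OCT4, a POU-domain factor that binds DNA together with SOX2, an HMG-box protein, and Nanog encodes a homeodomain protein that is typical of the naive state and lower in primed cells. Pou5f1 is known to use a distal enhancer chiefly in naive cells and a proximal enhancer chiefly in primed cells, and Sox2 is driven in ESCs by an enhancer cluster far downstream.

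The bases just upstream of the 3 start sites show what kind of sequence these promoters offer to SMAD proteins. They are printed from RefSeq on the GRCm38.p6 build, 250 bases before the first listed start of each gene, all on the + strand. The positions are chromosome 17 from 35505782 to 35506031, chromosome 3 from 34649745 to 34649994 and chromosome 6 from 122707239 to 122707488. Capitals mark matches on either strand to GGCGCC and GGAGCC, GC-rich letters bound by SMAD1/5, and to GTCT, the short SMAD box. The peak positions are mm9, so whether a peak covers these bases was not tested.
Pou5f1: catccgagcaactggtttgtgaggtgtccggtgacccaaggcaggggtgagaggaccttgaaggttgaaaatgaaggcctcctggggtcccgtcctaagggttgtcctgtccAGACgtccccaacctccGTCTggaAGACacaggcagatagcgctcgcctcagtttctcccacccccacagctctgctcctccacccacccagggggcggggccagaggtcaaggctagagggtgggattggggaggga
Sox2: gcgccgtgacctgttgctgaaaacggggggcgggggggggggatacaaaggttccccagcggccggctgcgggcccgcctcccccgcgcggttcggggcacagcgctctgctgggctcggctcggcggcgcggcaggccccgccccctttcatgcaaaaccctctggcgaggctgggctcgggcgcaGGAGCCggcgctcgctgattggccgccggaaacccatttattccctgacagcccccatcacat
Nanog: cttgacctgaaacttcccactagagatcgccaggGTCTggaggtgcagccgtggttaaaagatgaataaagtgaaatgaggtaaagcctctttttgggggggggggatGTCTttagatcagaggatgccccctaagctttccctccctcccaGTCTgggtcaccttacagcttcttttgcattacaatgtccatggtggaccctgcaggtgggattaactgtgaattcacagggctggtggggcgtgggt

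The upstream sequence of Sox2 was the richest in G and C, at 72.0%, against 62.0% for Pou5f1 and 52.0% for Nanog. Pou5f1 and Nanog each held 3 matches to GTCT, and Sox2 held 0. Sox2 held the only match to GGAGCC, 63 bases before its start, and none of the 3 held GGCGCC. Among 32851 upstream sequences of the same length in the RefSeq table, 82.9% held GTCT, 26.0% GGAGCC and 9.59% GGCGCC. Matches of different motifs did not overlap in these 3 sequences. A match is a run of letters and not a binding site.

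SMAD1/5 peaks were dense around Nanog and Pou5f1 in ESCs and less so around Sox2. In the Nanog window LIF+serum gave 10 peaks and LIF+BMP-4 gave 15. The Pou5f1 window held 6 and 10, and the Sox2 window 5 and 6. The higher LIF+BMP-4 counts at Nanog and Sox2 went with the longer list: with both lists cut to their 9387 highest peaks, LIF+BMP-4 gave 9 against 10 at Nanog and 4 against 5 at Sox2, while Pou5f1 kept 10 against 6. Among LIF+BMP-4 peaks Pou5f1 thus passed Nanog at equal length, 10 against 9, and also at scores of 100 or more, 7 against 6. For scale, the autosomes were cut into adjoining tiles of the same length. At least 1 LIF+serum peak fell in 37.2% of 200 kb tiles (40.5% of 230 kb tiles), and at least 1 LIF+BMP-4 peak in 47.8% (51.4%). Only 0.150% of tiles held as many LIF+serum peaks as the Nanog window, and 0.0833% as many LIF+BMP-4 peaks (18 and 10 of 12012 tiles). For Pou5f1 the percentages were 1.61% and 0.666%, and for Sox2, among 10444 tiles of 230 kb, 3.94% and 5.79%. The Nanog counts in both media together were reached by 4 tiles (0.0333%), those of Pou5f1 by 55 (0.458%) and those of Sox2 by 293 (2.81%). Restricted to tiles with any ESC peak, Nanog's counts were reached by 0.285% and 0.159% of tiles, and those of Sox2 by 6.98% and 10.3%. The windows were chosen around genes while tiles also cover gene deserts, so these shares describe local density and are not a test.

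**Figure D1:**
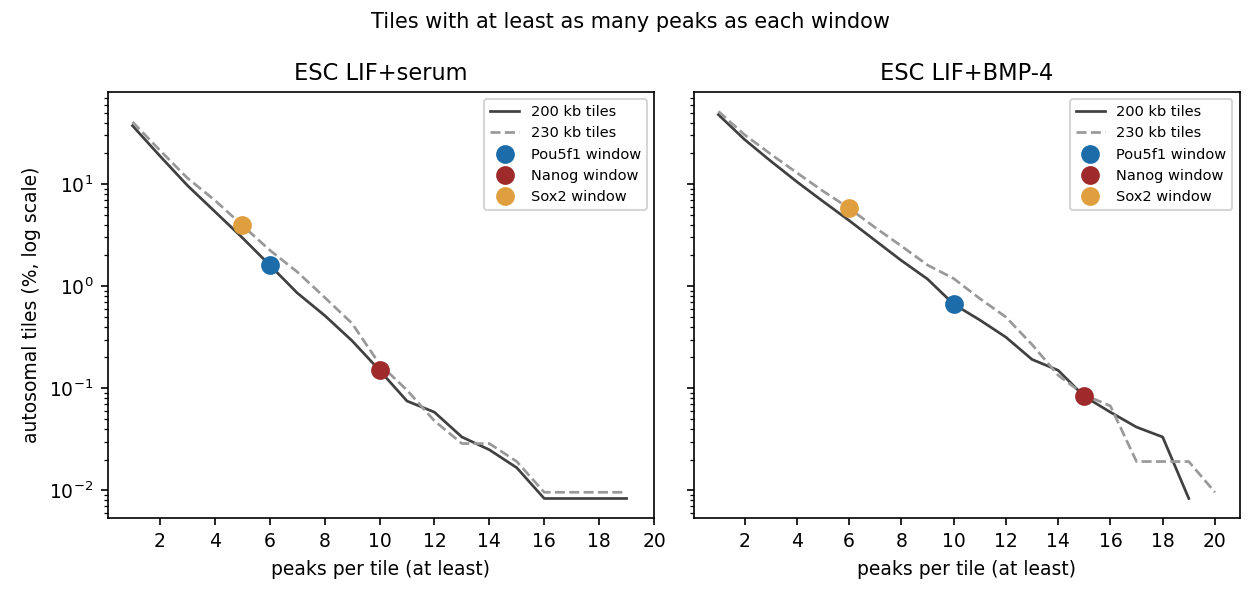
Share of autosomal tiles (log scale) that held at least a given number of peaks, in LIF+serum (left) and LIF+BMP-4 (right), for tiles of 200 kb (solid) and 230 kb (dashed). Points mark the number of peaks in each window: In the full lists Nanog lies farthest out, at 10 and 15 peaks, and Sox2 least far, at 5 and 6; with LIF+BMP-4 cut to 9387 peaks, Pou5f1 held 10 and Nanog 9.

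Peaks were not assigned to a gene, and whether a window holds other genes was not tested. In RefSeq's order of protein-coding genes, Pou5f1 lies between H2-Q10 and Tcf19, Sox2 between Dnajc19 and Atp11b, and Nanog between Dppa3 and Slc2a3. Dppa3, a maternal-effect gene expressed in naive ESCs, is followed away from Nanog by Gdf3, a ligand of the Nodal family. The neighbours were taken by order, without mm9 positions. Whether a peak lies closer to a neighbour than to the gene that names its window was therefore not tested.

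Around Pou5f1 most peaks gathered in 1 stretch. Overlapping peaks of all lists merged into 10 regions. Both ESC media called 6 of them, LIF+BMP-4 alone called 4 and LIF+serum alone called 0. The stretch from 35622569 to 35647043 (24.5 kb, regions joined across gaps of up to 10 kb) held 7 of the 10 regions, with 4 of 6 LIF+serum peaks, 7 of 10 LIF+BMP-4 peaks and the single ESD-EpiSC peak. The first 77.6 kb of the window held no peak in any list.

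Every LIF+serum peak at Pou5f1 was also called in LIF+BMP-4, 6 of 6, where 58.8% of all LIF+serum peaks were. In the other direction 6 of 10 LIF+BMP-4 peaks met a LIF+serum peak, against 38.7% of that whole list. These counts are small and most of the peaks lie in the same stretch, so they do not set Pou5f1 apart. The lists give each peak a score, the peak caller's own value, which was used to order peaks within a list. The same cutoff of 100 was also applied to every list. The scale is not named, so counts above that cutoff may not be comparable between lists. All 10 LIF+BMP-4 peaks scored above their list's median, as 49.9% of that list did by construction, with 56.8% to 87.8% of the list scoring lower. Of the 6 LIF+serum peaks, 2 scored above their list's median (50.0% of that list), and their positions ran from 4.91% to 73.2%. With LIF+BMP-4 cut to 9387 peaks, 7 of 10 lay above the median of that shorter list. Of the 10, 4 had no LIF+serum counterpart, and the 6 sites called in both media are compared below within 1 common set.

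The site at Pou5f1 that differed most between the media lay at the end of the main stretch, from 35646232 to 35647043 in LIF+serum and from 35646126 to 35647024 in LIF+BMP-4. Its LIF+serum score of 51.56 ranked 8922 of 9387, where the lowest score was 50.01. Its LIF+BMP-4 score of 133.80 ranked 2367 of 14696. The peak was thus near the limit of calling in LIF+serum, whereas 74.8% of the 9387 highest LIF+BMP-4 peaks scored lower.

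A pair of peaks lay side by side just before it. The first ran from 35640628 to 35641461 in LIF+serum (score 60.34, rank 6456) and from 35640615 to 35641414 in LIF+BMP-4 (126.57, rank 2676). The second ran from 35641613 to 35642316 in LIF+serum (66.21, rank 5344) and from 35641475 to 35642009 in LIF+BMP-4, where its score of 151.17 (rank 1792) was the highest of the Pou5f1 window. Both peaks held a higher position in LIF+BMP-4 than in LIF+serum, and the second is where the ESD-EpiSC peak fell.

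The highest LIF+serum peak at Pou5f1 lay at the start of that group, from 35635962 to 35636932 (score 93.85, rank 2517). Its counterpart ran from 35635856 to 35636378 in LIF+BMP-4 (104.93, rank 3950). With lists of equal length, 73.2% of peaks scored lower in LIF+serum, against 57.9% in LIF+BMP-4. Farther along the chromosome, a peak from 35681476 to 35682245 in LIF+serum (66.14, rank 5358) ranked 2106 in LIF+BMP-4 (140.55), where it ran from 35681456 to 35682057. The outermost, from 35727633 to 35728186 in LIF+serum (76.44, rank 3951), ranked 6342 in LIF+BMP-4 (83.10), where it ran from 35727800 to 35728455. The 4 peaks found in LIF+BMP-4 alone were not the weakest calls: 60.3% to 76.6% of their list scored lower.

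**Figure D2:**
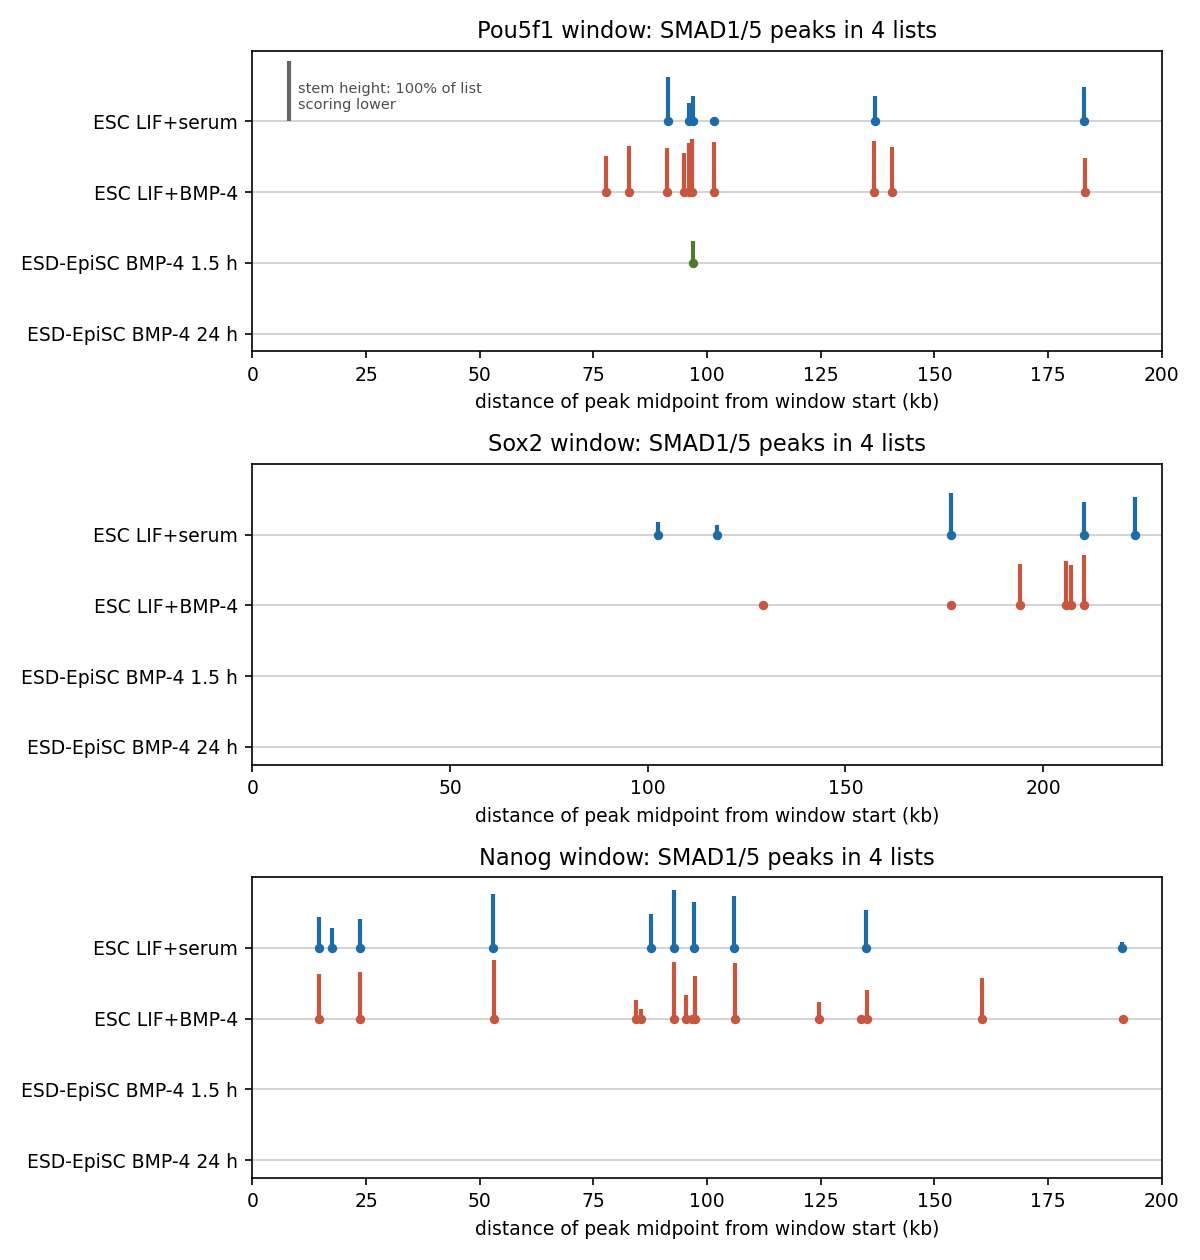
Peaks of the 4 lists in the windows of Pou5f1, Sox2 and Nanog, by distance of the peak midpoint from the window start in kb. Each dot is a peak and its stem gives the share of its own list that scored lower, with a full-height stem (100%) drawn as the key. A single ESD-EpiSC peak appears, at Pou5f1 after 1.5 h, and the 24 h rows are empty.

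Around Sox2 fewer peaks were called than around Pou5f1 or Nanog, though only 3.94% (LIF+serum) and 5.79% (LIF+BMP-4) of 230 kb tiles held as many. A smaller part of the Sox2 peaks was shared between the media. There were 9 merged regions: 2 called in both, 3 called in LIF+serum alone and 4 called in LIF+BMP-4 alone. Of the LIF+serum peaks 2 of 5 met a LIF+BMP-4 peak (40.0%, against 58.8% of the whole list). Of the LIF+BMP-4 peaks 2 of 6 met a LIF+serum peak (33.3%, against 38.7%). These counts are too small to set Sox2 apart from the whole lists or from Pou5f1 and Nanog. The first 102 kb of the window held no peak in any list, the longest such stretch of the 3 windows.

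Of the 6 LIF+BMP-4 peaks 4 lay towards the downstream end of the Sox2 window, the end that was drawn to take in the distal enhancer. Whether a peak covers that enhancer was not tested, since no mm9 annotation was used. From 34655427 to 34660816, a stretch of 5.39 kb, there were 3 LIF+BMP-4 peaks and 1 LIF+serum peak. The highest LIF+BMP-4 peak of the window lay there, from 34659912 to 34660626 (score 131.08, rank 2477), and met the LIF+serum peak from 34659857 to 34660816 (73.64, rank 4287). The neighbours from 34655427 to 34656049 (106.47, rank 3842) and from 34656710 to 34657219 (95.19, rank 4826) were called in LIF+BMP-4 alone, as was a peak from 34644006 to 34644556 (96.96, rank 4631).

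The other shared site at Sox2 went the opposite way. From 34626429 to 34627274 it was the highest LIF+serum peak of the window (score 88.33, rank 2912). In LIF+BMP-4, from 34626524 to 34627045, it scored 50.65 and ranked 14387 of 14696. The remaining LIF+serum peaks were called in that medium alone: from 34552328 to 34552993 (56.58), from 34567077 to 34567777 (54.95) and from 34672751 to 34673389 (81.32), with 21.0%, 16.9% and 62.9% of the list scoring lower. The only other LIF+BMP-4 peak, from 34578891 to 34579271 (52.06), ranked 13773.

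Nanog held the strongest calls of the 3 genes in both media. Of the 16 merged regions, 8 were called in both, 2 in LIF+serum alone and 6 in LIF+BMP-4 alone. Of the LIF+serum peaks 8 of 10 met a LIF+BMP-4 peak, against 58.8% of that whole list. In the other direction 9 of 15 LIF+BMP-4 peaks met a LIF+serum peak, against 38.7%. These counts too are small, and the difference from the whole lists was not tested. A stretch from 122644117 to 122666495 (22.4 kb) held 7 of the regions, with 4 LIF+serum and 7 LIF+BMP-4 peaks.

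The site from 122652095 to 122653547 was the highest LIF+serum peak of all 3 windows and also the widest (score 212.29, rank 340 of 9387, 1453 bp). In LIF+BMP-4, from 122652332 to 122653300, it scored 215.11 and ranked 772 of 14696. The site from 122612412 to 122613520 in LIF+serum (144.34, rank 924) was the highest LIF+BMP-4 peak of all 3 windows, from 122612622 to 122613524 (262.88, rank 437). Another strong site, from 122665416 to 122666495 in LIF+serum (126.85, rank 1263), ran from 122665749 to 122666461 in LIF+BMP-4 (187.52, rank 1075). These 3 sites were in the top 20% of both lists.

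Between the strong sites of that stretch lay a wide LIF+serum peak, from 122656560 to 122657487 (98.85, rank 2229), that met 2 narrower LIF+BMP-4 peaks. The first, from 122656378 to 122656830, was close to the lowest score of its list (50.88, rank 14280). The second, from 122657070 to 122657707, scored 102.06 (rank 4189).

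The remaining shared sites at Nanog were of middle or low score. Near the start of the window, the site from 122574283 to 122575198 in LIF+serum (71.96, rank 4487) ran from 122574409 to 122575049 in LIF+BMP-4 (107.80, rank 3724). The site from 122583180 to 122583976 in LIF+serum (69.52, rank 4846) ran from 122583374 to 122583790 in LIF+BMP-4 (113.54, rank 3361). Both held a higher position in LIF+BMP-4. The site from 122694387 to 122695659 in LIF+serum (82.16, rank 3384) ran from 122694703 to 122695446 in LIF+BMP-4 (74.94, rank 7569), a lower position there. The last, from 122750867 to 122751557 in LIF+serum (53.10, rank 8400) and from 122751171 to 122751637 in LIF+BMP-4 (50.65, rank 14387), was weak in both media.

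The Nanog peaks called in LIF+BMP-4 alone lay mostly in the lower part of their list. These 6 had 3.62% to 67.3% of the list below them, with a median of 29.0%, against 1.78% to 97.0% and a median of 74.7% for the 9 shared ones. Shared and unshared peaks were not compared over the whole list, so whether this is particular to Nanog was not tested. The 2 found in LIF+serum alone, from 122577034 to 122577936 (61.20) and from 122647336 to 122647921 (75.99), had 33.1% and 57.2% below them.

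**Figure D3:**
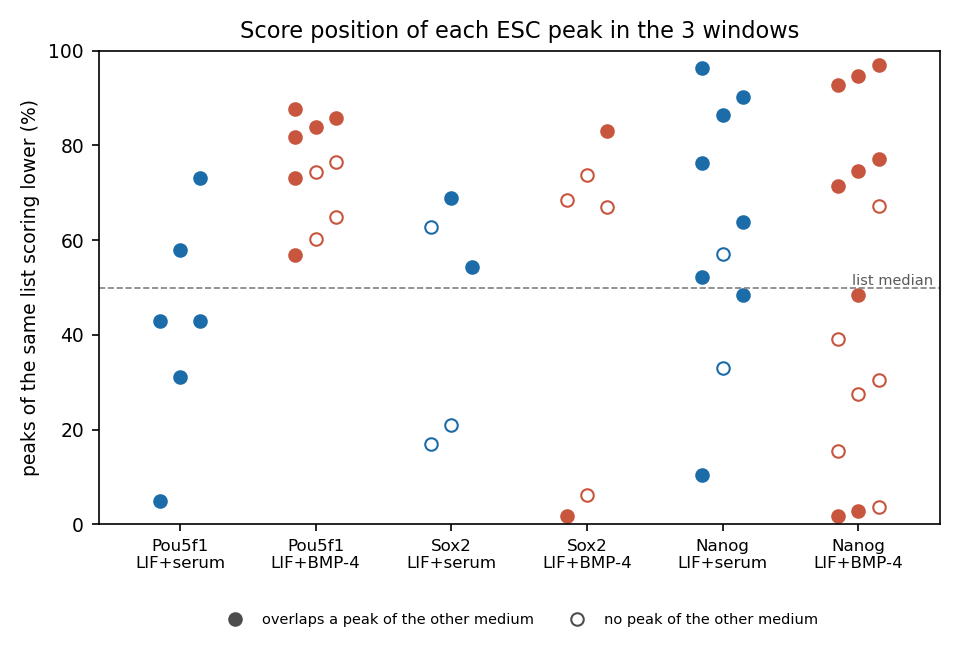
Score position of each ESC peak of the 3 windows, as the percentage of its own list that scored lower, with filled points for peaks that overlap a peak of the other medium. All 10 Pou5f1 peaks in LIF+BMP-4 lie above the list median (dashed), and Nanog holds both the highest and some of the lowest points.

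Within the windows as drawn, the 3 genes had the same order by their highest peak in either medium. In the full lists this was also the order of their peak counts, with Nanog, Pou5f1 and Sox2 at 10, 6 and 5 in LIF+serum and at 15, 10 and 6 in LIF+BMP-4. A window with more peaks has more chances of holding a high one, and the order was not tested apart from the counts. In LIF+serum 96.4% of the list scored below the highest Nanog peak, 73.2% below that of Pou5f1 and 68.9% below that of Sox2. In LIF+BMP-4 the percentages were 97.0%, 87.8% and 83.1%, or 95.3%, 80.9% and 73.6% at equal list length. The place of Sox2 rests on the window edge. With windows shortened by 50 kb at each end its LIF+BMP-4 value was 6.25%, and a site 59.8 kb past the end of the window stood at 95.3% of the LIF+serum list and 94.1% of the LIF+BMP-4 list, above every Pou5f1 peak. The top 20.0% of the LIF+serum list held 3 of the 21 peaks, all at Nanog. The top 20.0% of the LIF+BMP-4 list held 8 of the 31, namely 4 at Pou5f1, 3 at Nanog and 1 at Sox2. Cut to 9387 peaks, the LIF+BMP-4 list had 4 in its top 20%, 3 at Nanog, 1 at Pou5f1 and 0 at Sox2, so the count of 8 went with list length. Scores of 100 or more were given to 3 of 21 LIF+serum peaks (23.1% of the whole list) and to 15 of 31 LIF+BMP-4 peaks (29.7%), of which 7 lay at Pou5f1, 6 at Nanog and 2 at Sox2. Over the 3 windows 16 of 21 LIF+serum peaks (76.2%) and 17 of 31 LIF+BMP-4 peaks (54.8%) met a peak of the other medium. The whole-list shares were 58.8% and 38.7%. Peaks of 1 library that lie in groups are not independent draws, so no interval is given and the difference was not tested.

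Because the 2 lists differ in length, positions were also taken within 1 common set, the 5330 pairs in which a single LIF+serum peak met a single LIF+BMP-4 peak. This comparison was added after the values had been seen. The windows held 15 such pairs: 6 at Pou5f1, 2 at Sox2 and 7 at Nanog. In this set a percentile is the share of pairs scoring lower in the same medium, and 49.8% of all pairs had the higher percentile in LIF+BMP-4.

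At Pou5f1, 4 of 6 pairs were higher in LIF+BMP-4, by 38.0 to 62.2 percentile points. For scale, 10.8% of all pairs differed by at least 38.0 points in that direction. That limit is the smallest of these 4 differences, so the share is not a test. The pairs at 35640628, 35641613 and 35646232 lie in the same 24.5 kb stretch and are not independent sites. The pair at 35646232, singled out as the largest difference, stood at 3.38% in LIF+serum and at 65.6% in LIF+BMP-4. Of all pairs 2.36% differed by at least as much in that direction. The pair at 35641613, the one with the ESD-EpiSC peak, was at 31.1% and 72.8%, and its neighbour at 35640628 at 21.5% and 62.3%. The pair at 35681476 was at 30.9% and 68.9%. The other 2 pairs differed by -12.7 and -12.2 points (LIF+BMP-4 minus LIF+serum), between the quartiles of all pairs, -19.7 and 18.9.

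At Nanog the pairs held closer positions than those 4 at Pou5f1, but the 4 had been picked out and the closeness is not particular to Nanog. The differences (LIF+BMP-4 minus LIF+serum) ran from -25.3 points at 122694387 to 19.1 points at 122583180. The other 2 Pou5f1 pairs, at -12.7 and -12.2 points, lay within that range. The quartiles of all pairs were -19.7 and 18.9. The 3 strongest sites differed by -7.43, 7.65 and 2.40 points. They stood at 79.8% to 94.3% in LIF+serum, which left less room for a rise. At Sox2 the 2 pairs parted. The pair at 34659857 was 22.5 points higher in LIF+BMP-4, and the pair at 34626429 stood at 57.7% in LIF+serum and at 0.750% in LIF+BMP-4, a difference that 3.19% of all pairs matched or exceeded in that direction.

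**Figure D4:**
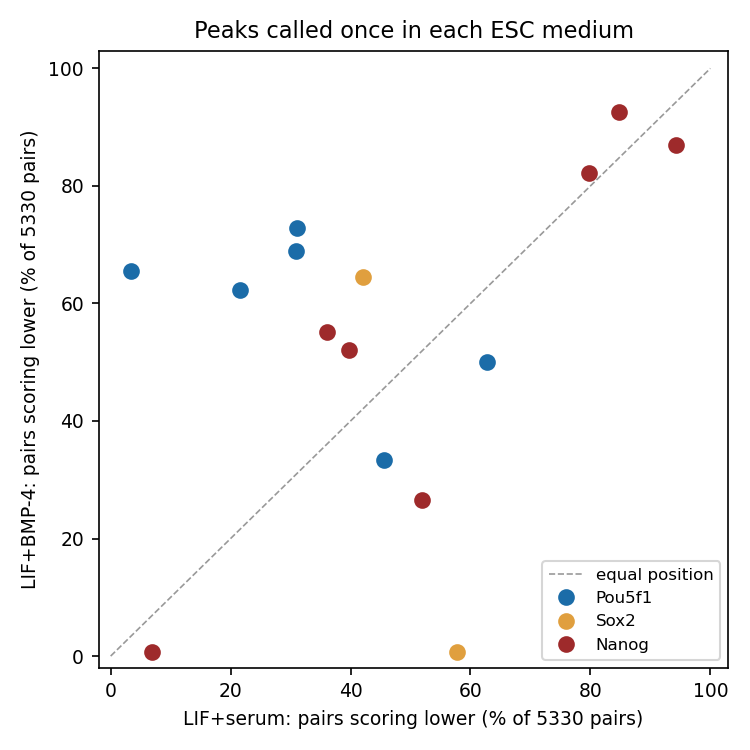
Percentile of each of the 15 paired ESC peaks among 5330 pairs, in LIF+serum (horizontal) and LIF+BMP-4 (vertical), coloured by gene. Of the Pou5f1 pairs 4 lie far above the line of equal position, the 3 strongest Nanog pairs lie near it, and a Sox2 pair lies at the bottom.

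The paired peaks overlap by definition, so near midpoints follow from how they were chosen. Their midpoints lay a median of 67.5 bp apart over the 3 windows, against 70.5 bp over all pairs, with medians of 161 bp at Pou5f1, 67.2 bp at Sox2 and 51.5 bp at Nanog. Peaks were wider in LIF+serum in 13 of 15 pairs, as in 92.6% of all pairs. The 2 exceptions were both at Pou5f1, the pairs at 35646232 (812 bp, and 899 bp in LIF+BMP-4) and at 35727633 (554 bp and 656 bp). The width ratio at Nanog, a median of 1.50, was close to that of all pairs, 1.48, and the ratio at Pou5f1 was 1.16.

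Spacing differed between the windows, as their peak counts did. At Pou5f1 4 of 6 LIF+serum peaks and 9 of 10 LIF+BMP-4 peaks had another peak of the same list within 5 kb, and at Nanog 5 of 10 and 8 of 15 did. At Sox2 the counts were 0 of 5 and 3 of 6. Over the whole LIF+serum list the share was 20.4%, and over the whole LIF+BMP-4 list 28.3%. Within 10 kb the counts at Nanog became 8 of 10 and 12 of 15, those at Pou5f1 and Sox2 stayed as they were, and the whole-list shares were 30.1% and 39.3%. In LIF+serum Nanog thus had the larger share with a neighbour at 10 kb (8 of 10 against 4 of 6 at Pou5f1) and Pou5f1 at 5 kb. The median gap to the nearest peak of the same list was 3.81 and 3.47 kb at Pou5f1, 4.71 and 1.78 kb at Nanog, and 14.1 and 6.78 kb at Sox2, against 27.1 and 17.2 kb over the whole lists, in LIF+serum and LIF+BMP-4 respectively. More peaks in a window of fixed length lie closer together, and neighbouring peaks count each other. The spacing is therefore not independent of the peak counts given above. The whole-list values were not matched for local density, and the differences were not tested. The spacing limit was chosen after the values had been seen.

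In ESD-EpiSCs the 3 loci gave a single call. After 1.5 h of BMP-4 a peak of 115 bp lay at Pou5f1, from 35641799 to 35641913, with a score of 57.60 and rank 144 of 225. It lay wholly inside the ESC peak of both media, its midpoint 108 bp from that of the LIF+serum peak and 114 bp from that of the LIF+BMP-4 peak, and those peaks were 6.12 and 4.65 times as wide. Overlap with both ESC lists was found for 23.1% of all 1.5 h peaks. After 24 h no peak was called in any of the 3 windows. The nearest 24 h peak to the Pou5f1 window was 2.97 Mb away, from 38718495 to 38718578.

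At Sox2 and Nanog no ESD-EpiSC peak was called at either time. On chromosome 6 the nearest to the Nanog window was 1.16 Mb away at 1.5 h (from 123922262 to 123922377, rank 219 of 225) and 4.53 Mb away at 24 h (from 127286728 to 127287103, rank 1 of 133). On chromosome 3, which held 5 peaks at 1.5 h and 6 at 24 h, the nearest to the Sox2 window were 28.6 Mb and 15.9 Mb away. In lists this short, absence is the usual outcome. Of 200 kb tiles 1.51% held a 1.5 h peak and 0.874% a 24 h peak, and of 230 kb tiles 1.70% and 1.01%. Among all LIF+serum peaks 0.575% met a 1.5 h peak and 0.256% a 24 h peak, and in the top 20% by score, where 3 Nanog peaks lay, 1.65% and 0.693% did. In LIF+BMP-4 the shares were 0.374% and 0.197%, and 1.22% and 0.544% in the top 20%. The 0 counts at Sox2 and Nanog are thus near the background, and the lists do not show a loss of SMAD1/5 from these loci between states.

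Some calls lay just outside the windows and were not counted. A strong ESC site ended 0.810 kb before the Nanog window in LIF+serum (from 122558292 to 122559190, score 156.92) and 1.15 kb before it in LIF+BMP-4 (from 122558311 to 122558847, 148.96). A LIF+serum peak (54.32) began 0.422 kb after the Nanog window, and a LIF+BMP-4 peak (51.75) began 0.751 kb after the Sox2 window. The strongest site near Sox2 lay beyond the window in both media, 59.8 kb past its end in LIF+serum (from 34739768 to 34740685, score 194.63, rank 445) and 59.9 kb in LIF+BMP-4 (from 34739949 to 34740447, 206.01, rank 860). Both scored above every Sox2 and Pou5f1 peak inside the windows. The 70 kb on either side of the Pou5f1 window held no peak in any list.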

How the data were processed

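SMAD1/5-bound chromatin was sequenced from ESCs and ESD-EpiSCs, 1 library per condition (n = 1), grouped by the library titles. The 2 input libraries were not analysed here. Per the submitters' processing notes, the mm9 build was used with MACS 1.4.2, Picard and Bowtie 1.1.0, in roles that are not stated. Read filters, control libraries and depth are likewise not stated, so no precision can be given for a peak's presence. The authors deposited 1 peak list per library with a score per peak, whose scale the files do not name.

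Peaks were assigned to a window, and called shared, by an overlap of at least 1 bp (Python 3.11.15, scipy 1.17.1). All peaks of the windows are accounted for, and those named are the highest of each list, those in both ESC media, ESD-EpiSC peaks and their nearest neighbours, plus peaks singled out afterwards. Tiles ran along 19 autosomes between the first and last peak. Overlap code was tested with part of the LIF+serum peaks against simulated peaks, and tile code on LIF+serum peaks, each against a direct count. The RefSeq table held all 3 genes. The members were chosen with earlier results of these data known, and pair percentiles, spacing, grouping of regions, peaks outside the windows and the promoter motifs were added later. Other fixed settings are in the closing section. Positions are 1-based.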

Additional observations from a re-analysis of the deposited data

How the results depend on the processing

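No paired analysis was possible because no condition has a replicate. Of the planned settings, 79 left a value within its limit (1.5 times for counts, the exact 95% interval for percentiles) and 27 moved it. Keeping scores of at least 100 left Pou5f1 and Sox2 with 0 LIF+serum peaks and Nanog with 3, 2 LIF+BMP-4 peaks at Sox2 and 6 at Nanog, and 0 ESD-EpiSC peaks at 1.5 h; shared peaks became 0 at Pou5f1 and Sox2 and 3 at Nanog, in both directions. With both ESC lists at 9387 peaks, LIF+BMP-4 peaks fell to 9 at Nanog and 4 at Sox2, below the 10 and 5 in LIF+serum, shared peaks at Sox2 to 1 in both directions, and the percentiles of the highest LIF+BMP-4 peaks to 80.9 (Pou5f1), 73.6 (Sox2) and 95.3 (Nanog), since only low-scoring peaks were removed. Windows shortened by 50 kb at each end left 3 LIF+serum and 2 LIF+BMP-4 peaks at Sox2, 1 shared peak there in both directions, a highest LIF+BMP-4 percentile of 6.25 there, because the distal stretch was lost, and at Nanog 6 LIF+serum peaks, 5 of them shared. Extension of peaks by 1 kb gave 2 LIF+serum and 3 LIF+BMP-4 peaks that met the 1.5 h peak, the Pou5f1 site and its neighbours. Assignment by midpoint, overlap of 50% of the shorter peak and windows lengthened by 50 kb moved no value past its limit. Of the settings added after the data were seen, a spacing of 10 kb raised the LIF+serum peaks at Nanog with a neighbour to 8, and lists of equal length lowered the LIF+BMP-4 peaks in the top 20% to 1 at Pou5f1 and 0 at Sox2. The other 18 values stayed within 1.5 times.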
